A study of Rattus norvegicus with 6 samples.

Results

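The acid-base genes of the intercalated cell were followed in the renal cortex of rats given 2,2-bis(bromomethyl)-1,3-propanediol (BBMP), a brominated diol. They are a fixed list of 10 genes: the transcription factor Foxi1, the anion exchangers Slc4a1, Slc4a9 and Slc26a4, the proton pump subunits Atp6v1b1, Atp6v1g3, Atp6v1c2 and Atp6v0d2, and the ammonia transporters Rhcg and Rhbg. They were listed by name, with earlier results of these data known, and found on the array by the RefSeq transcript that each probe targets. The list held 17 probes of 61563, and its 10 genes were among 31582 genes or sequences that could be tested. All 17 probes were tested and were well above background on all 6 arrays, and 0 were saturated.

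Total RNA of renal cortex was hybridised to 6 one-colour Agilent arrays, 1 array per animal. The BBMP group was 3 male Sprague-Dawley (Crl:CD(SD)) rats dosed with 1000 mg/kg/day for 4 weeks, and the control group was 3 male rats of the same strain that received corn oil, the vehicle, for 4 weeks. All were bought at 5 weeks of age, and the design text calls them biological replicates. A value below is the log2 of the processed signal over the array's 75th percentile, so 1 unit is a doubling, and a difference is BBMP minus control. Such levels are relative to each probe and are not compared between probes or genes, except in the summed linear signals of gene lists. There, a gene's share of the sum depends on its probe as well as on its RNA.

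Intercalated cells are the acid-base cells of the connecting tubule and collecting duct. Type A cells pump protons into the urine with a vacuolar proton pump, the V-ATPase, and return bicarbonate to the blood through the anion exchanger that Slc4a1 encodes, while type B cells send bicarbonate into the urine through pendrin, the product of Slc26a4. The Rh glycoproteins of the same segments carry ammonia into the urine, and in mice Foxi1 is needed for intercalated cells to form and to express pump and exchanger genes.

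Foxi1 is a forkhead factor, and TGTTTA and TGTTTG are common forms of the short core that forkhead proteins bind. These letters were searched on both strands of the 250 bases before the gene start, which the RefSeq promoter table of the GRCr8 assembly held for 8 of the 10 genes, Slc4a1 and Atp6v0d2 not being among them. TGTTTA occurred in 12.1% and TGTTTG in 15.5% of the 33469 promoters in that table, and each occurred in 2 of the 8. The promoters without either belong to genes that did not pass the test. The 3 promoters that held either are shown, chosen by these letters alone. They belong to Slc4a9, the gene that was called, and to 2 pump subunits that did not pass. Each is written 5′ to 3′ and ends at the base before the gene start, and capitals mark the match, CAAACA being TGTTTG on the opposite strand.
Slc4a9, chr18:28402543-28402792, + strand: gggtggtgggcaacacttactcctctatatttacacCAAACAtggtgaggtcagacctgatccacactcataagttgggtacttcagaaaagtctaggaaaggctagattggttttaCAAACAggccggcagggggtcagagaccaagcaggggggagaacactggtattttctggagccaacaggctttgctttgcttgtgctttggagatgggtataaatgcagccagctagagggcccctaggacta
Atp6v1g3, chr13:52362082-52362331, + strand: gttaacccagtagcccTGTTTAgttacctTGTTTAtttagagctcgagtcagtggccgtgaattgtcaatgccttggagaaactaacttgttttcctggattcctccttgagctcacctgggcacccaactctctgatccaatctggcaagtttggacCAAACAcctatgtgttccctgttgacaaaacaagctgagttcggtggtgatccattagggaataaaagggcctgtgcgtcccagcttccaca
Atp6v1b1, chr4:117781194-117781443, + strand: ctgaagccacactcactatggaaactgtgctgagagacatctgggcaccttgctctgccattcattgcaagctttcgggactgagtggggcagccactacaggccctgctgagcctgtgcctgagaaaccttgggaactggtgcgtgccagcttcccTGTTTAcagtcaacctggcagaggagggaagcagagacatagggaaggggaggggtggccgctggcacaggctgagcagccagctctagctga
Slc4a9 held TGTTTG at 214 to 209 and at 133 to 128 bases before its start. Atp6v1g3 held TGTTTA at 234 to 229 and at 221 to 216 bases and TGTTTG at 92 to 87 bases, and Atp6v1b1 held TGTTTA at 93 to 88 bases. A match of letters is a description only, and the arrays measured no binding.

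Slc4a9, which encodes the anion exchanger AE4 of the type B intercalated cell, was the 1 gene of the 10 that passed the test, and it rose. Of all 31582 genes, 5659 or 17.9% passed at an adjusted p under 0.05, with 10.2% higher and 7.68% lower, so 1 of 10 is not above the background. The other 9 genes did not pass: 5 had positive and 4 had negative differences. The median difference of the 10 was 0.12, against 0.05 over all genes tested. The groups did not overlap in 4 of the 10 genes, 3 higher and 1 lower with BBMP, against 43.6% of all genes, 25% higher and 18.6% lower. Of all called genes, 57.1% were higher with BBMP, but 46.6% under cyclic loess scaling and 36.4% with normexp background correction.

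The groups differed in more than treatment on the arrays. All BBMP arrays lay on 1 slide with 1 scan and all control arrays on another, so slide, scan and treatment cannot be told apart. The 75th percentile of the signal was 1244.5 to 1259.5 on BBMP arrays and 942.7 to 949.7 on control arrays, and 70.5% to 72.7% against 67.2% to 68.6% of probes were well above background. Signal levels across genes correlated with a median r of 0.993 within groups and 0.989 between them. In bulk cortex, fewer cells of a type and less RNA per cell cannot be told apart.

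Control replicate 3 stood apart for these genes: it had the highest control value in 10 of the 10 genes and in 17 of the 17 probes. Over all genes tested it was the highest control in 37.74%, and in 40.4% of the 8808 genes within the brightness range of the 10. Control replicate 1 was the lowest control in 7 of the 10 genes. No BBMP sample had such a position, replicate 1 being the highest in 5, replicate 2 in 4 and replicate 3 in 1, which was Foxi1. Control replicate 3 lay in row 1 of its slide, as the BBMP arrays did, and the other two controls lay in row 2. Values without it are given with each gene, and the part of slide row in its position was not tested.

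**Figure D1:**
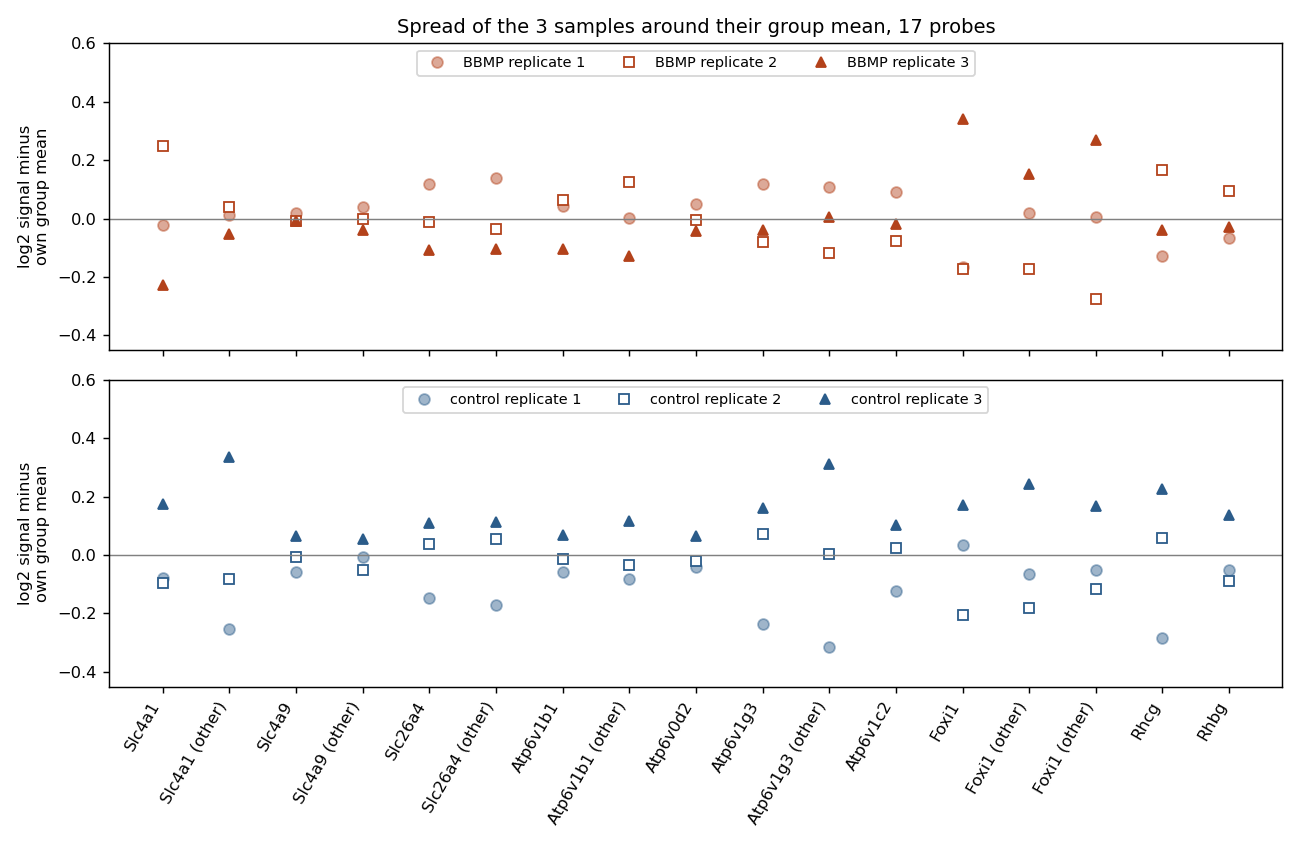
Log2 signal of each of the 17 probes minus the mean of its own group, for BBMP samples (top) and control samples (bottom), 1 symbol per replicate. Control replicate 3 (filled triangles) was the highest control for all 17 probes, while the order of the BBMP samples changed from gene to gene.

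Foxi1 had 3 probes, and all 3 had lower means with BBMP without passing the test. On the brightest probe, BBMP replicates 1, 2 and 3 had 2.64, 2.64 and 3.15, and control replicates 1, 2 and 3 had 3.38, 3.14 and 3.51. BBMP replicate 3 lay just above control replicate 2, so the groups overlapped at that pair. The difference was -0.53 (SE 0.18, 95% interval -0.97 to -0.10, adjusted p = 0.0864, limma). The second probe had -1.91, -2.10 and -1.77 with BBMP against -1.83, -1.94 and -1.52 in controls, a difference of -0.16 (SE 0.14). The third had -1.90, -2.18 and -1.64 with BBMP against -1.60, -1.66 and -1.38 in controls, a difference of -0.36 (SE 0.16). On every one of the 3 probes BBMP replicate 3 was the highest of its group and overlapped the controls. The difference was -0.45 without control replicate 3 and -0.70 without BBMP replicate 3. Across 21 alternative settings the gene's difference stayed between -0.70 and -0.35, which was the value with its 3 probes averaged, and was called in 0.

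Both probes of Slc4a9 rose in BBMP cortex. The brightest had 2.82, 2.79 and 2.79 in BBMP samples and 2.36, 2.41 and 2.48 in control samples. The 3 BBMP values lay within a few hundredths of each other and all above the controls. Slc4a9 averaged 2.80 ± 0.016 with BBMP and 2.42 ± 0.06 in controls (SD, n = 3 each), a difference of 0.38 (SE 0.06, 95% interval 0.23 to 0.52), or 1.30-fold, with adjusted p = 0.0171 in limma. Its other probe had 2.73, 2.69 and 2.65 in BBMP samples and 2.23, 2.19 and 2.30 in control samples, again with no overlap. That probe was 1.37-fold higher (log2 difference 0.45, SE 0.06, adjusted p = 0.0139 over all probes tested). The gene's difference was positive in all 21 alternatives, between 0.28 and 0.41, but was called in 14, and its adjusted p ranged from 0.00597 to 0.126. Without BBMP replicate 1, 2 or 3 the adjusted p was 0.0614, 0.0614 or 0.0534, and without control replicate 1 or 2 it was 0.0527 or 0.0563. Without control replicate 3 it was 0.0336, with a difference of 0.41.

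Slc4a1, which encodes the band 3 exchanger of type A cells and of red cells, had 1 of its 2 probes called. The brightest probe had 2.93, 3.21 and 2.73 with BBMP and 2.72, 2.70 and 2.97 in controls. The groups overlapped, and the difference of 0.16 (SE 0.14, 95% interval -0.20 to 0.52) did not pass (adjusted p = 0.466, limma). It moved with single samples, being 0.035 when BBMP replicate 2 was left out, against 0.27 with BBMP replicate 3 left out and 0.25 with control replicate 3 left out. The dimmer probe had -2.49, -2.46 and -2.55 with BBMP and -3.39, -3.22 and -2.80 in controls. There the groups did not overlap, and the probe rose 1.55-fold (log2 difference 0.64, SE 0.16, adjusted p = 0.0424 over all probes). The median difference over all probes of that brightness was 0.05. That call was lost under, among others, quantile scaling (adjusted p = 0.0532), cyclic loess (0.0614) and with no filter on dim probes (0.0565). Red cell genes were looked at beside it: of 12 erythroid genes 8 could be tested and 0 were called by limma. At an unadjusted p under 0.05 there was 1 of the 8, against 11564 of all 31582 genes. Their summed linear signal, in units of the array's 75th percentile, to which Hba-a1 gave 60.4% to 62.6%, was 557.3 to 634.7 with BBMP and 501.0 to 597.8 in controls, and the part of red cells in the Slc4a1 values was not tested.

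Slc26a4, the pendrin gene, did not pass on either probe. The brightest probe had 5.69, 5.56 and 5.46 in BBMP samples and 5.61, 5.79 and 5.86 in control samples. BBMP replicate 1 lay above control replicate 1, and the other values did not cross. The difference was -0.19 (SE 0.10, 95% interval -0.43 to 0.06, adjusted p = 0.226, limma), and -0.13 without control replicate 3. The other probe had 2.97, 2.80 and 2.73 with BBMP and 2.75, 2.98 and 3.04 in controls, a difference of -0.09 (SE 0.11). In both groups the 2 probes ranked the replicates alike, replicate 1 being the highest with BBMP and the lowest in controls. Among the 3 exchangers, then, the type B genes Slc4a9 and Slc26a4 had differences of opposite sign, of which one passed.

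**Figure D2:**
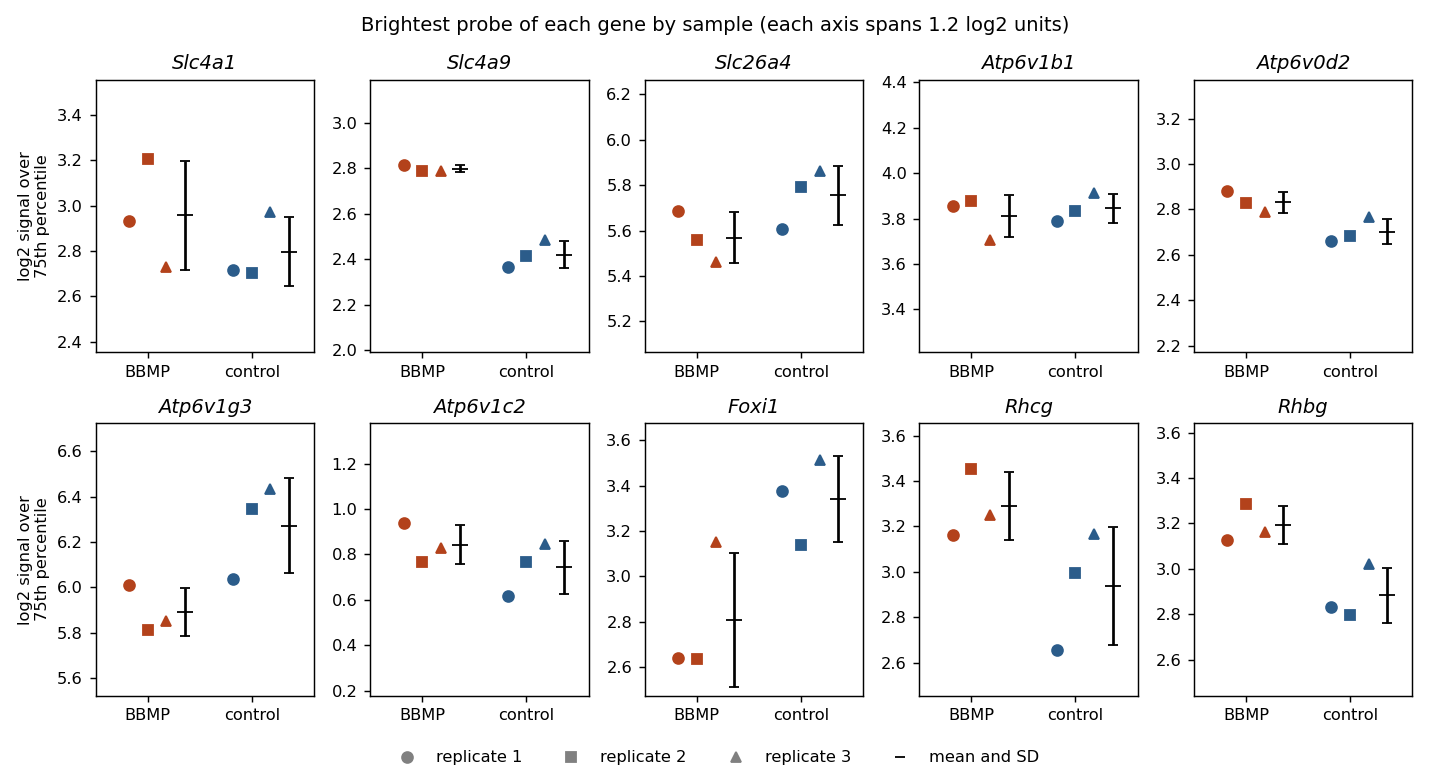
Log2 signal over the array's 75th percentile for the brightest probe of each of the 10 genes, by sample, with the mean and SD of each group beside the points; every panel spans the same 1.2 log2 units. Slc4a9 has BBMP samples at 2.79 to 2.82 and controls at 2.36 to 2.48. The groups overlap in Slc4a1, Slc26a4, Atp6v1b1, Atp6v1c2, Foxi1 and Rhcg.

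The V-ATPase consists of a catalytic part in the cytosol, V1, and a proton channel in the membrane, V0. Atp6v1g3, a V1 stalk subunit found mainly in kidney, had the largest negative difference among the 4 pump genes and did not pass. Its brightest probe had 6.01, 5.81 and 5.85 with BBMP and 6.04, 6.34 and 6.43 in controls. The groups did not overlap, though BBMP replicate 1 and control replicate 1 were close. The difference was -0.38 (SE 0.12, 95% interval -0.68 to -0.08), a 1.30-fold higher signal in controls, with adjusted p = 0.0835 in limma. Its other probe had 3.09, 2.87 and 2.99 with BBMP and 3.15, 3.47 and 3.78 in controls, also without overlap, and differed by -0.48 (SE 0.17, adjusted p = 0.0964 over all probes). Without control replicate 3 the difference of the brightest probe was -0.30 (adjusted p = 0.17), and over the 21 alternatives the gene's difference lay between -0.54 and -0.30 with 0 calls.

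Atp6v1b1, the B1 subunit of V1 whose loss causes distal renal tubular acidosis in people, did not pass on either probe. Its brightest probe had 3.85, 3.88 and 3.71 with BBMP and 3.79, 3.83 and 3.91 in controls, a difference of -0.03 (SE 0.07, 95% interval -0.21 to 0.15), and 0.0025 without control replicate 3. The dimmer probe had -0.16, -0.04 and -0.29 with BBMP and -0.44, -0.39 and -0.24 in controls, a difference of 0.19 (SE 0.09, adjusted p = 0.204 over all probes). The 2 probes thus had opposite signs, the groups overlapped on each, and the sign of the brightest turned with normexp background correction (0.0798).

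Atp6v0d2, the d2 subunit of V0, had 2.88, 2.83 and 2.79 with BBMP and 2.66, 2.68 and 2.77 in controls. Its BBMP samples all lay above the controls, by a narrow margin at BBMP replicate 3 and control replicate 3. The difference of 0.13 (SE 0.06, 95% interval -0.02 to 0.28) did not pass (adjusted p = 0.189, limma), and was 0.16 without control replicate 3. Macrophages and osteoclasts also use this subunit. Of 10 of their genes 6 could be tested and 1, Csf1r, was called and higher, against 10.2% higher over all genes. The summed signal of the 6 was 44.7 to 49.3 with BBMP and 50.7 to 55.7 in controls. Acp5 gave at least 90.2% of that sum, and the rest came to 4.11 to 4.82 with BBMP and 3.92 to 4.47 in controls. The part of macrophages and osteoclasts in the Atp6v0d2 values was not tested. Atp6v1c2, the C2 subunit of V1, had 0.94, 0.77 and 0.83 with BBMP and 0.62, 0.77 and 0.84 in controls. Its groups overlapped, and the difference was 0.10 (SE 0.09, 95% interval -0.11 to 0.31, adjusted p = 0.435, limma). Without control replicate 3 it was 0.15, without control replicate 1 it was 0.039, and without BBMP replicate 1 it was 0.055.

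Rhbg and Rhcg, the ammonia transporters, both had higher means with BBMP and did not pass. Rhbg, which lies in the basolateral membrane, had 3.13, 3.29 and 3.16 with BBMP and 2.83, 2.79 and 3.02 in controls. All 3 BBMP samples were above all 3 controls. The difference was 0.31 (SE 0.09, 95% interval 0.09 to 0.52, adjusted p = 0.0608, limma). Rhbg passed in 4 of the 21 alternatives: normexp background correction (0.39, adjusted p = 0.0186), trend and robust moderation (0.0320), array weights (0.0484) and without control replicate 3 (0.38, adjusted p = 0.0473). Rhcg, present in apical and basolateral membranes, had 3.16, 3.45 and 3.25 with BBMP and 2.65, 2.99 and 3.16 in controls. BBMP replicate 1 and control replicate 3 were level, the control being higher by under a hundredth. Rhcg averaged 3.29 ± 0.15 with BBMP and 2.94 ± 0.26 in controls (SD, n = 3 each), a difference of 0.35 (SE 0.15, 95% interval -0.02 to 0.73, adjusted p = 0.157, limma). It was 0.46 without control replicate 3 and 0.21 without control replicate 1.

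**Figure D3:**
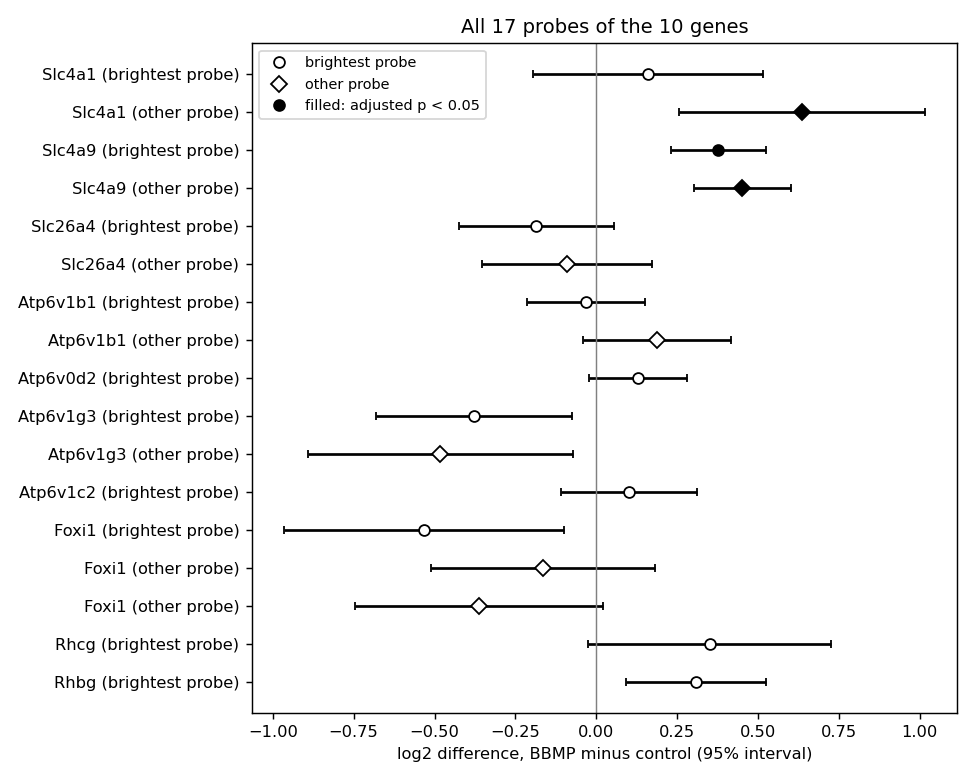
Log2 difference, BBMP minus control, with its 95% interval for all 17 probes. Circles are the brightest probe of a gene and diamonds its other probes. Filled symbols have an adjusted p under 0.05, over all genes tested for circles and over all probes tested for diamonds. The 3 filled probes, both of Slc4a9 and the dimmer one of Slc4a1, lie between 0.38 and 0.64, and the intervals of both Atp6v1g3 probes and of the brightest Foxi1 probe lie below 0.

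Counted by probe, 3 of the 17 passed, all higher with BBMP, against 17.8% of the 42657 probes tested, 10.3% higher and 7.46% lower. The 17 split into 9 positive and 8 negative differences. Groups did not overlap in 7 of the 17 probes, 5 higher and 2 lower, against 43.4% of all probes. Of the 6 genes with more than 1 probe, the probes shared a sign except in Atp6v1b1. Probes of 1 gene read the same RNA and are not replicates.

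Of 22 further genes of the intercalated cell 20 could be tested, and 4 were called higher and 1, Car2, lower, against 10.2% higher and 7.68% lower over all genes. The 5 calls became 0 without BBMP replicate 2 and with the replicate number or slide row as a block, 2 without BBMP replicate 1 or 3, and 3 without control replicate 1 or 2. Kcnma1, a large-conductance potassium channel, rose 1.99-fold (log2 difference 0.99, adjusted p = 0.0108, limma), with -1.75, -1.65 and -1.57 in BBMP samples and -2.66, -2.60 and -2.68 in control samples. Aqp6, a water channel family member of type A cell vesicles, rose 1.70-fold with -2.33, -2.12 and -2.18 with BBMP against -2.92, -3.13 and -2.88 in controls. These groups stood well apart, and the second probe of Aqp6 was also called (0.66), while that of Kcnma1 was not (0.36). With normexp background correction both were still called, at smaller differences of 0.65 for Kcnma1 and 0.44 for Aqp6.

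Car12, a membrane carbonic anhydrase, rose 1.46-fold, and both of its probes were called (0.55 and 0.58). Slc12a7, the potassium-chloride cotransporter KCC4, rose 1.27-fold on the brightest probe, with 2.40, 2.39 and 2.39 in BBMP samples and 2.00, 2.09 and 2.06 in control samples. Its 5 other probes were positive too, from 0.06 to 0.80, and 4 of them were called. Car2, the cytosolic carbonic anhydrase that supplies protons and bicarbonate to intercalated cells and is also made in proximal tubule, fell: it had 4.39, 4.47 and 4.42 with BBMP and 4.83, 4.76 and 4.97 in controls, and was 1.35-fold higher in controls (log2 difference -0.43, SE 0.07, adjusted p = 0.0205, limma).

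Atp12a, the colonic-type proton-potassium pump, had 1.96, 2.63 and 1.47 with BBMP and 3.09, 2.52 and 2.76 in controls. Car15, another membrane carbonic anhydrase, had 4.29, 4.66 and 4.30 with BBMP and 4.30, 3.68 and 3.29 in controls. The groups overlapped in both, and neither difference passed (-0.77, SE 0.32, and 0.66, SE 0.27). The median of the 20 genes was 0.07, and their summed signal was 107.5 to 116.1 with BBMP and 109.4 to 121.6 in controls, of which Tfcp2l1, a transcription factor, gave 34.3% to 42.0%.

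The V-ATPase subunits outside the 10 genes, many of which every cell uses, gave 0 calls by limma in 18 genes tested of 21 listed. At an unadjusted p under 0.05 there were 8 of the 18, against 11564 of all 31582 genes. Their median difference was -0.04, and their summed signal was 270.2 to 272.5 with BBMP and 274.2 to 288.0 in controls. Atp6v1g2, the G2 subunit, had a difference of 0.62 (SE 0.23, adjusted p = 0.116), and Atp6v1c1, the C1 subunit, had -0.33 (SE 0.13, adjusted p = 0.136).

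Of 13 genes for ammonia production and bicarbonate reabsorption, all tested, limma called 0. At an unadjusted p under 0.05 there were 8 of the 13, against 11564 of all 31582 genes. Slc38a3, the glutamine transporter SNAT3 of the proximal tubule, had 0.36, -0.10 and 0.99 with BBMP and -0.80, -0.23 and -1.27 in controls. The groups did not overlap, but the spread within each was wide, and the difference of 1.18 (SE 0.36) had adjusted p = 0.0740. Slc9a3, the sodium-proton exchanger NHE3, had -0.49 (SE 0.13, adjusted p = 0.0534) on its brightest probe, and another probe had -0.23 and was not called. Its dimmest probe was called the opposite way (0.50), where the median difference over all probes of that brightness was 0.14. With normexp background correction 6 of the 13 genes were called, 3 of them higher.

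**Figure D4:**
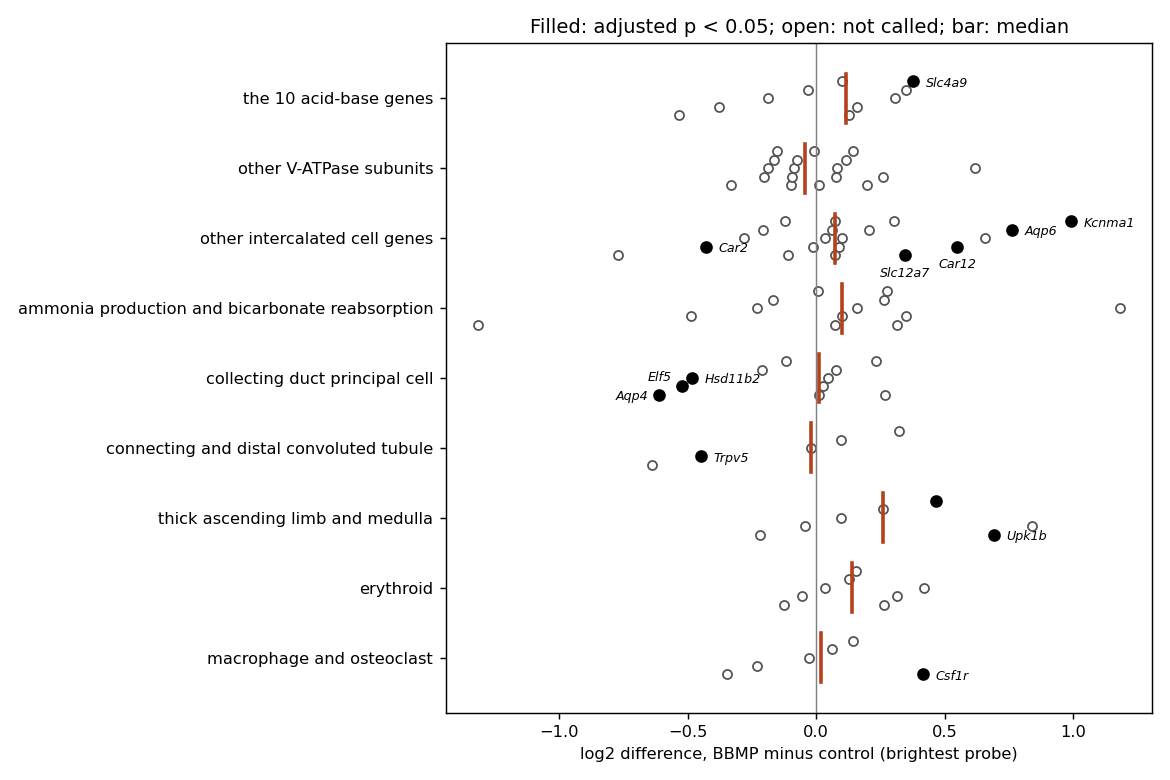
Log2 difference, BBMP minus control, of the brightest probe of each tested gene in the 10-gene list and in 8 comparison lists; filled points passed at an adjusted p under 0.05 over all genes and bars are list medians. Slc4a9 at 0.38 is the 1 filled point among the 10 genes, and called genes of the other intercalated cell list lie on both sides of 0.

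Markers of neighbouring cells were measured as the setting for these values. Of those tested, 11 of 11 principal cell, 5 of 5 connecting and distal convoluted tubule and 6 of 7 thick limb and medulla genes were well above background on all 6 arrays, while Pvalb of the distal convoluted tubule was below the filter. Over all genes tested this held for 29437 of 31582. The filter itself required detection on all 3 arrays of a group, so these counts cannot check the tissue label. Principal cells share the collecting duct with intercalated cells: of 12 genes 11 could be tested, with 0 higher and 3 lower. Over all genes 10.2% were called higher and 7.68% lower, and a list this short cannot be told from that share. Their summed signal in the 11 genes was 171.5 to 187.4 with BBMP and 192.7 to 208.5 in controls. The 3 called genes were Aqp4, a basolateral water channel (-0.61, with -1.004 and 0.22 on its other tested probes), Elf5, an epithelial transcription factor (-0.52), and Hsd11b2, which inactivates glucocorticoids (-0.48). These calls became 0 without any one BBMP sample or without control replicate 2. Scnn1a, a sodium channel subunit (0.27), and Avpr2, the vasopressin receptor (0.23), did not pass, although a second probe of Scnn1a was called (0.60).

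In the connecting and distal convoluted tubule 5 of 7 genes could be tested, and 1 was called, against 17.9% of all genes. Trpv5, a calcium channel, fell (-0.45, adjusted p = 0.0462), but its other probe had 0.21, and its call held without control replicate 1 and was lost without any other single sample. Calb1, a calcium-binding protein (-0.64, adjusted p = 0.0672), and Klk1, tissue kallikrein (0.32, adjusted p = 0.0794), did not pass. The summed signal was 198.6 to 232.2 with BBMP and 169.5 to 193.4 in controls, but Klk1 alone gave 80.2% to 87.7% of it. Without Klk1 the sum was 28.60 to 32.80 with BBMP and 26.63 to 34.997 in controls, and 3 of the 5 genes had negative differences. Of 8 genes of the thick ascending limb and medulla 7 could be tested and 2 rose, against 10.2% higher over all genes. Among the 2 was Upk1b, a uroplakin of urothelium (0.69, but 0.28 and not called with normexp background correction). Slc14a2, a urea transporter of the inner medullary collecting duct (0.26), and Cldn16, a tight junction protein (-0.22), did not pass, and the summed signal ran from 287.0 to 411.3 with BBMP and from 233.1 to 452.4 in controls, at least 99.2% of it from Umod, the uromodulin gene. Alas2 (0.42) and Epb42 (0.32), red cell genes, and the macrophage and osteoclast genes Mrc1 (-0.35) and Acp5 (-0.23) did not pass, while Csf1r was 1.34-fold higher (0.42). The part of the makeup of the dissected tissue in the values of the 10 genes was not tested.

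The 3 named genes whose profile over the 6 samples lay closest to that of Slc4a9, among 12077 named genes, were Clpb, a mitochondrial chaperone, Gpat4, an enzyme of glycerolipid synthesis, and Pik3r2, a phosphoinositide 3-kinase subunit. The root mean square distance of their centred log2 values from those of Slc4a9 was 0.0173 for Clpb, 0.0222 for Gpat4 and 0.0230 for Pik3r2. None of the 3 is in the intercalated cell lists used here.

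Changes in processing moved the 10 genes unequally. Of 210 values, 10 genes under 21 alternatives, 204 kept the sign of the reported value. With slide row as a block, the estimate sets BBMP against control replicate 3 alone. Slc4a9 was then 0.31, Rhbg 0.17, Rhcg 0.12, Atp6v1g3 -0.54 and Foxi1 -0.70, and each of the 10 differences was lower than reported. Leaving control replicate 3 out raised each of the 10, to 0.38 for Rhbg, 0.46 for Rhcg, -0.30 for Atp6v1g3 and -0.45 for Foxi1. Both directions were fixed in advance, because control replicate 3 was the highest control in all 10 genes.

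**Figure D5:**
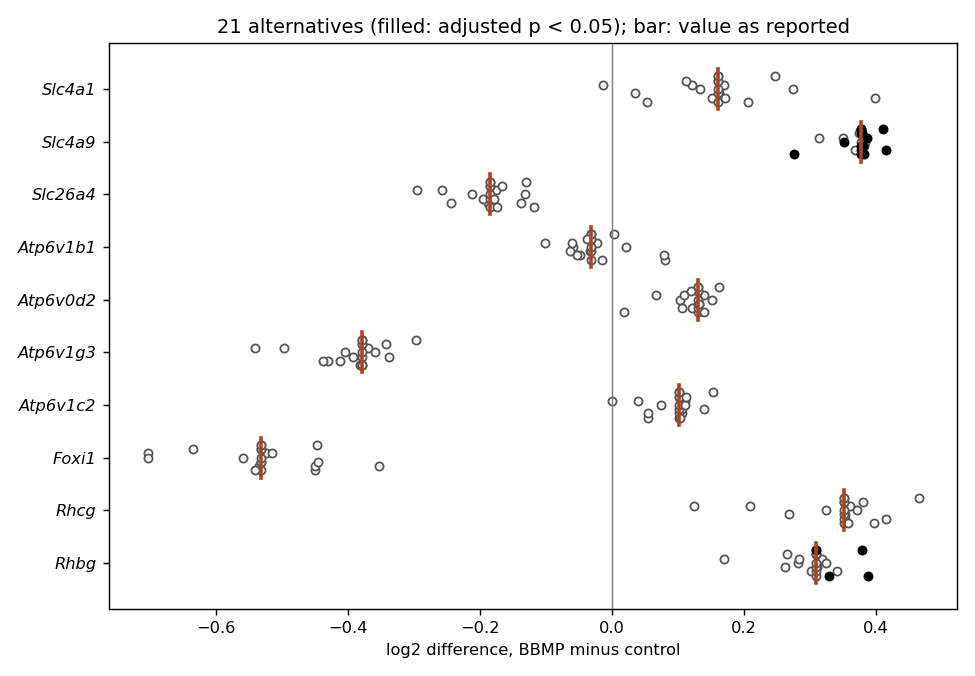
Log2 difference, BBMP minus control, of each of the 10 genes under 21 alternative settings (circles; filled at an adjusted p under 0.05), with the reported value as a bar. Slc4a9 (filled in 14) and Rhbg (filled in 4) are the 2 genes with any call, and Atp6v1b1 lies on both sides of 0.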

How the data were processed

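Renal cortex RNA of 3 BBMP and 3 control rats was labelled with Cy3, per the labels' protocols. Each array's deposited file gives linear intensity, background-subtracted and detrended by Agilent Feature Extraction 10.7.1.1 per the file headers (10.7 per the submitters' processing notes), with raw median signals. They also hold flags, a deposited score of 0 or 1 per spot. The authors' deposited table gives a ratio per probe; each of its columns was proportional, to an SD of 0.0044 to 0.0059 in log2, to the processed signal of another sample's file of the same group, with a divisor near that array's 75th percentile (938.9 against 942.7 in one), in the same rotation in both groups. Its column medians were 0.1064 to 0.1131, its preparation is not stated in it, and it served as an alternative only. Replicate numbers are therefore uncertain, while groups are not.

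Of 61657 non-control probes, 84 ERCC and 10 outlier-flagged probes were left out. Values are the log2 of the deposited processed signal over its 75th percentile on that array. Probes were tested where either group had all 3 arrays well above background, and a gene was its brightest tested probe. limma 3.58.1 in R 4.3.3 (lmFit, eBayes, two-sided, no covariates) was run over all genes and again over all probes, with Benjamini-Hochberg adjustment over each and calls at 0.05; it was tested on simulated data. Names came from unversioned RefSeq accessions in a GRCr8 table (27452 probes). The array's design is on rn4, and probe positions were not used here. Precision is limited by the number of arrays.

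The text names all 10 genes with all probes. Of every other list it names each called gene (up to 8) and up to 2 uncalled genes of largest difference detected on all 6 arrays. One further called gene is not reported here by name. The genes, lists and tests were chosen with earlier results of these data known. Alternatives changed the background correction (normexp, offset 50), scaling, filter, probe choice, moderation, weights, blocks and samples.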

Additional observations from a re-analysis of the deposited data

How the results depend on the processing

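The counts as reported were 5659 genes called in all, 1 of the 10 genes and 3 of their 17 probes, and 0 other V-ATPase, 5 other intercalated cell, 0 ammonia and bicarbonate, 3 principal cell, 1 connecting and distal tubule, 2 thick limb and medulla, 0 erythroid and 1 macrophage genes. The cause of the changes that follow was not tested. Normexp background correction called 2 of the 10 genes and 5 of their probes, 1 V-ATPase, 6 ammonia, 3 connecting and distal tubule and 1 thick limb gene, and moved the median of all genes to -0.06 from 0.05. Quantile scaling, cyclic loess, no filter, the mean of a gene's probes and no moderation each called 1 thick limb gene, and the last 3 called 0 connecting and distal tubule genes; no moderation called 3 V-ATPase genes. Median scaling, only probes detected on all 6 arrays and array weights each called 1 ammonia gene. Trend and robust moderation called 2 of the 10 genes, 3 V-ATPase, 4 ammonia, 2 connecting and distal tubule, 1 erythroid and 2 macrophage genes; array weights called 2 of the 10 genes and 1 erythroid gene.

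Deviations from the group mean correlated at -0.12, -0.08 and -0.07 for same-numbered samples and at -0.05 to 0.12 for the other combinations. With 3 samples per group and uncertain replicate numbers, these values cannot decide whether samples were paired. With the replicate number as a block, limma called 0 genes in all, 0 of the 10 genes, 0 of their probes and 0 in every list. Slc4a9 then had an adjusted p of 0.0808. Slide row as a block, with control replicate 3 as the only control in its estimate, also gave no calls.

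Leaving out 1 sample at a time gave 3 to 4002 called genes (3 without BBMP replicate 2), 0 to 2 of the 10 genes, 0 to 4 of their probes, 0 to 5 other intercalated cell, 0 to 2 principal cell, and 0 to 1 each of connecting and distal tubule, thick limb, erythroid and macrophage genes.

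Signs turned for Atp6v1b1 with normexp (0.0798), the mean of its probes (0.0777) and without 1 sample (-0.064 to 0.0206, above 0 without BBMP replicate 3 or control replicate 3). They turned for Slc14a2 (-0.056) and Epb42 (-0.13) with normexp, for Slc4a1 (-0.0145), Atp6v1c2 (-0.00083), Avpr2 (-0.086) and Cldn16 (0.44) with slide row as a block, and without 1 sample for Cldn16 (-0.55 to 0.11, above 0 without control replicate 1) and Mrc1 (-0.72 to 0.087, above 0 without control replicate 2).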
